A study of Sus scrofa with 3 samples.

Results

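The miRNAs described here come from the imprinted DLK1-DIO3 locus, a region named for the protein-coding genes DLK1 and DIO3 at its ends. In mammals the maternal chromosome of this locus is transcribed into long noncoding RNAs (MEG3, the antisense transcript of RTL1, MEG8 and MIRG), and a large group of miRNA hairpins is cut from them, whereas the paternal chromosome gives the proteins DLK1 and RTL1. A point mutation between these genes causes the muscle overgrowth of callipyge sheep, and in mouse muscle the factor MEF2A acts on the promoter of the noncoding transcript. The miRNAs of the locus are best known from brain, embryo and regenerating muscle. A hairpin yields a 5p and a 3p strand, either of which can enter the silencing complex, where bases 2 to 8 (the seed) largely choose the targets.

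Entries were taken from a table of miRNAs known in other mammals and found in pig muscle, and belong to the cluster if the name that most of their listed precursors from other mammals carry is miR-154b, miR-376d, miR-377, miR-409, miR-411c, miR-431, miR-485, miR-539, miR-541 or miR-655. These 10 precursors gave 18 entries of the 152 listed. Both arms were listed for 8 precursors, and miR-409 and miR-655 had only a 3p entry. All 18 had at least 3 reads, as did 108 of the 145 unique sequences in the table. Hairpins of the locus that were already annotated in pig were not analysed here.

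Small RNA was sequenced from peroneal longus (PL, red, oxidative muscle), psoas major muscle (PMM, intermediate) and longissimus dorsi muscle (LDM, white, glycolytic muscle) of female Landrace pigs aged 210 days, with no treatment. Each muscle has 1 library. The PL library pooled RNA from 3 animals, and the PMM and LDM reads came from an earlier sequencing of the same pigs, so for PL the muscle and the sequencing study cannot be told apart. The tests compared libraries and not muscles, and the intervals cover counting error only, since there is 1 library per muscle. The reads carry no molecular identifiers, so copies of the same molecule could not be told apart and the intervals may be too narrow. Raw reads came to 9.17 M in PL, 18.46 M in PMM and 16.62 M in LDM. The table accounts for 23583, 16286 and 12463 of them. One miRNA, miR-26b-5p, took 90.5%, 62.7% and 62.9% of the reads in the table. Of 7 muscle miRNAs looked for, only 2 had entries in the table, miR-1 and miR-208a. The entries of these summed to 18.8, 51.1 and 81.4 RPM (reads per 1 M raw reads of the library) in PL, PMM and LDM. The miR-208a-5p entry was at 0 in LDM. These sums leave out miR-133a, miR-133b, miR-206, miR-208b and miR-499, so they do not give the level of muscle miRNAs as a whole. They do not give the level of miR-1 either. The paper names miR-1 among the abundant known pig miRNAs enriched in LDM, and entries of known pig miRNAs were not analysed here. The paper reports miR-208b and miR-499 as highly expressed in PL.

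In Sscrofa10.2, the assembly the deposited positions refer to, miR-431 was placed at chr7:132097559-132097703 on the plus strand. In human and mouse its hairpin belongs to the transcript antisense to RTL1, whereas the other members belong to the long array between miR-379 and miR-410. These other 9 precursors (16 entries) were listed under the word scaffold with no number, all on the minus strand, from position 6877 for miR-409 to 31755 for miR-376d. With 5 more miRNAs of the locus in the table (miR-412, miR-496, miR-487a, miR-544 and miR-376b) they made 14 positions whose starts spanned 24.96 kb. The 12 of these with a human counterpart, counting miR-154b as miR-154, followed in the reverse of the human order at all 11 steps. A position alone does not show that 2 entries share a scaffold, because 4 miRNAs from outside the locus (miR-302d, miR-330, miR-33a and miR-190b) were listed within the same range of coordinates.

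The sequences of the entries on which the results turn are given 5′ to 3′ as deposited, with the seed in capitals. The first 4 were higher in PL than in both other libraries, the next 3 complete the entries called in any comparison, and the last 4 show the arms of miR-539 and the sequences closest to one another.
miR-411c-5p: gGTTGATCagagaacatacatt
miR-411c-3p: tGTATGTCaactgatccacagt
miR-377-3p: aTCACACAaaggcaacttttgt
miR-431-5p: tGTCTTGCaggccgtcatgc
miR-485-5p: aGAGGCTGgccgtgatgaattcg
miR-485-3p: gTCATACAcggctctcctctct
miR-409-3p: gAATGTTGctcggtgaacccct
miR-539-5p: gGAGAAATtatccttggtgtgt
miR-539-3p: aTCATACAaggacaatttctt
miR-154b-3p: aTCATACAtggttgaccttttt
miR-655-3p: aTAATACAtggttaacctcttt

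The 18 entries were 20 to 25 nt long, 11 of them 22 nt, and their GC content ran from 27.3% to 63.6%. They carried 16 different seeds. The seed of miR-376d-3p was also that of miR-376b-3p, which is no member, and seeds of miRNAs already annotated in pig were not compared. The seed TCATACA was shared by miR-485-3p, miR-539-3p and miR-154b-3p. These 3 differed outside the seed. Over the whole compared length, seed included, 12 of 21 bases were identical between miR-539-3p and miR-485-3p. The counts were 14 of 21 for miR-154b-3p with miR-539-3p and 15 of 22 for miR-154b-3p with miR-485-3p. The entries closest in sequence were miR-154b-3p and miR-655-3p (19 of 22 bases identical), miR-377-5p and miR-485-5p (19 of 23), and, outside the chosen members, miR-376b-3p with miR-376d-3p (19 of 21). Reads with more than 1 sequencing error could be credited to the wrong one of such a pair, whose sequences differ at 2 to 4 bases. Of the 18 entries, 15 lay unchanged in the hairpin listed with them. The other 3 differed by 1 base, given as the hairpin base, the place counted from the 5′ end of the mature strand and the base listed for the miRNA: C21T in miR-655-3p, T11C in miR-377-5p and T13G in miR-409-3p. The miR-377-5p sequence occurred unchanged in the other hairpin listed for that position.

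Summed over the 18 entries, the cluster reached nearly the same level in the red and the intermediate library and a lower one in the white library. PL held 436 reads, PMM 871 and LDM 384, which correspond to 47.6 RPM (95% exact Poisson interval 43.2 to 52.2), 47.2 RPM (44.1 to 50.4) and 23.1 RPM (20.9 to 25.5). The ratio was 1.01 for PL over PMM (95% interval 0.896 to 1.13), 2.06 for PL over LDM (1.79 to 2.37) and 2.04 for PMM over LDM (1.81 to 2.31). The summed level is a description with no test. Both strands followed it, since the 8 entries of 5p strands summed to 11.5, 13.0 and 6.44 RPM and the 10 entries of 3p strands to 36.1, 34.2 and 16.7 RPM. Without miR-409-3p, the entry with the most reads over the 3 libraries together (353), the cluster stood at 38.0, 37.2 and 18.3 RPM.

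These sums depend on the library total. With the reads of the table as the total, of which miR-26b-5p held most in PL, the members made up 1.85%, 5.35% and 3.08% in PL, PMM and LDM, so that PL was then lower than LDM. With miR-26b-5p left out of the total the shares were 19.5%, 14.3% and 8.29%. The order of PMM above LDM held under all 4 other totals tried, at log2 ratios between 0.59 and 0.80 in place of 1.03. In bulk muscle, fewer cells of a type and less RNA per cell cannot be told apart.

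The sums of PL and PMM, nearly equal on raw read totals, were led by different miRNAs. In PL the leading entry was miR-411c-3p with 24.5% of the cluster's reads, followed by miR-409-3p with 20.2% and by miR-411c-5p and miR-377-3p with 13.3% each. In PMM and LDM the leading entry was miR-485-3p, with 25.3% and 26.0%, which held 3.67% in PL. By contrast miR-409-3p kept 20.2%, 21.2% and 20.8% of the cluster's reads in PL, PMM and LDM. All 18 entries had reads in PL and in PMM, and 16 did in LDM, where miR-154b-3p and miR-541-3p were at 0, which allows up to 0.222 RPM.

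**Figure D1:**
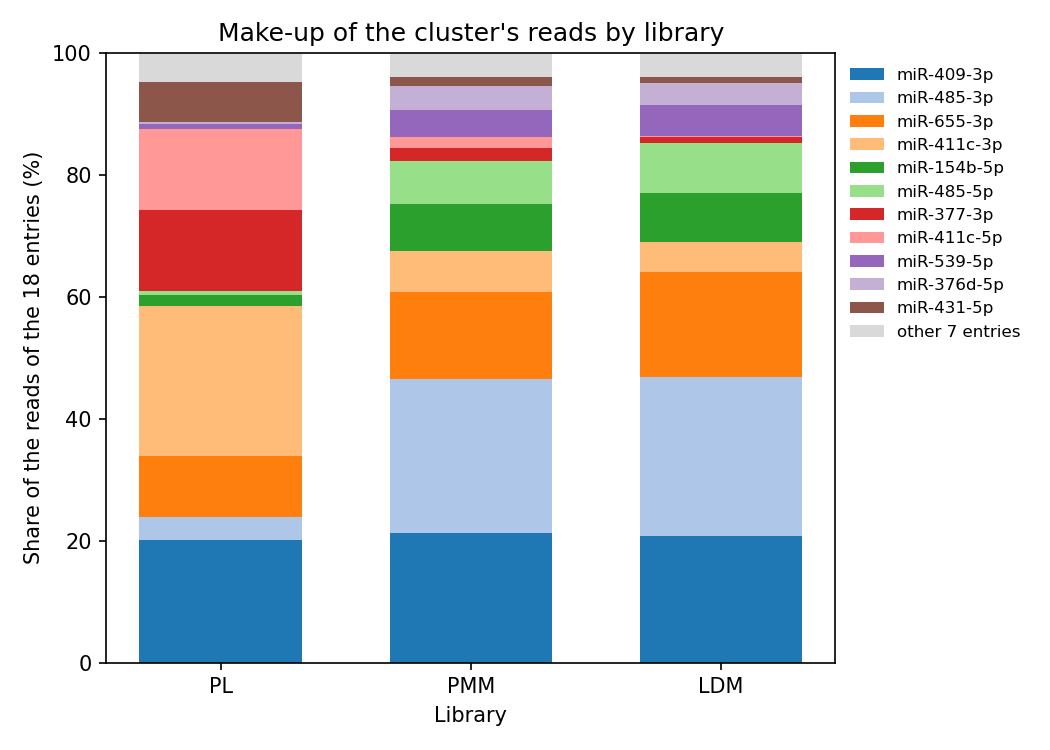
Share of the cluster's reads (y axis, percent of the reads of the 18 entries) taken by each entry in the PL, PMM and LDM libraries. Each coloured part of a bar is 1 entry with at least 40 reads in all and grey is the sum of the other 7; miR-485-3p goes from 3.67% in PL to 25.3% in PMM and 26.0% in LDM, whereas miR-409-3p stays between 20.2% and 21.2%.

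A miRNA was called different between 2 libraries where a two-sided test on the raw read totals by each of 3 methods (Audic-Claverie, chi-squared and Fisher's exact) gave a Bonferroni-adjusted p under 0.001 over the 108 miRNAs tested and the levels differed by over 1.5-fold. It was called enriched in a library if it was higher there than in both others. The adjusted p printed for such a comparison is the largest of the 3, from an exact or an approximate method. Of the 18 entries, 7 were called in at least 1 comparison (38.9%, against 28.7% of all tested miRNAs). Against PMM, PL had 4 members called higher (11.1% of all tested miRNAs were) and 2 called lower (10.2% of all tested). Against LDM, PL had 4 members higher (14.8% of all tested) and 1 lower (8.33% of all tested). PMM had 2 members called higher than LDM (7.41% of all tested) and 0 called lower (3.70% of all tested).

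The members enriched in PL numbered 4, from 3 precursors, against 11.1% of all tested miRNAs. They were both strands of miR-411c, miR-377-3p and miR-431-5p. Enriched in PMM was 1 member, miR-485-3p (3.70% of all tested), and enriched in LDM were 0 members (3.70% of all tested).

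The precursor miR-411c was matched by name to cattle, and to a sheep hairpin of another number, and has no human counterpart under that name. Its hairpin is shown because both of its strands were sequenced and both were higher in PL, with the strands in capitals around a loop of 10 nt.
miR-411c hairpin: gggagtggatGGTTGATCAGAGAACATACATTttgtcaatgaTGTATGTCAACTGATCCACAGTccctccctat

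For miR-411c-3p there were 107, 58 and 19 reads in PL, PMM and LDM, or 11.7, 3.14 and 1.14 RPM. PL was 3.71-fold above PMM (95% interval 2.67 to 5.21, largest Bonferroni-adjusted exact or approximate p = 1.5e-14) and 10.2-fold above LDM (6.23 to 17.6, adjusted p = 4e-28). The intervals of the 3 levels did not overlap. For miR-411c-5p there were 58, 16 and 1 reads, or 6.33, 0.867 and 0.0602 RPM. PL was 7.30-fold above PMM (4.14 to 13.6, largest Bonferroni-adjusted exact or approximate p = 2.2e-13). Against LDM the ratio was 105, with an interval from 18.1 to 4223 because it rests on 1 read there (largest exact or approximate adjusted p = 8.2e-22). Both strands had their highest level in PL and their lowest in LDM, and the steps from PMM to LDM were not called (largest exact or approximate adjusted p = 0.0071 for the 3p and 0.066 for the 5p strand).

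A similar order was seen for miR-377-3p. This miRNA is known from kidney mesangial cells of human and mouse, where it was tied to fibronectin production. Its reads were 58 in PL, 18 for PMM and 4 for LDM, or 6.33, 0.975 and 0.241 RPM. PL was 6.49-fold above PMM (3.77 to 11.7, largest Bonferroni-adjusted exact or approximate p = 1.8e-12) and 26.3-fold above LDM (9.73 to 99.7, adjusted p = 1.6e-19). PMM stood 4.05-fold above LDM, which was not called (1.34 to 16.5, largest exact or approximate adjusted p = 0.94). The other strand, miR-377-5p, had 2, 4 and 4 reads.

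For miR-431, which in mouse muscle targets Pax7 in satellite cells and promotes their differentiation, the 5p strand had 28, 12 and 4 reads in PL, PMM and LDM, or 3.05, 0.650 and 0.241 RPM. PL was 4.70-fold above PMM (2.31 to 10.1, largest Bonferroni-adjusted exact or approximate p = 0.00024) and 12.7-fold above LDM (4.44 to 49.8, adjusted p = 1.9e-07). This was the only enriched member placed away from the listed scaffold positions, and it lost its place under TMM scaling, where its log2 ratio to PMM was 2.04 in place of 2.23 and the call ended. miR-431-3p had 2, 3 and 1 reads.

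The PL calls of these 4 members depended on the library total. With the summed reads of the table as the library total, which moved the median log2 ratio of PL over PMM of all tested miRNAs with reads in both from 0.01 to -1.53, none of the 4 was called against PMM, 0 members were enriched in PL, and the call of miR-431-5p against LDM ended as well (log2 ratio 1.89). Their ratios stayed above 1 there, at log2 values of 1.32 for miR-411c-5p, 0.35 for miR-411c-3p, 1.15 for miR-377-3p and 0.69 for miR-431-5p. The same 4 were enriched with miR-26b-5p left out of that total and with median-of-ratios size factors.

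**Figure D2:**
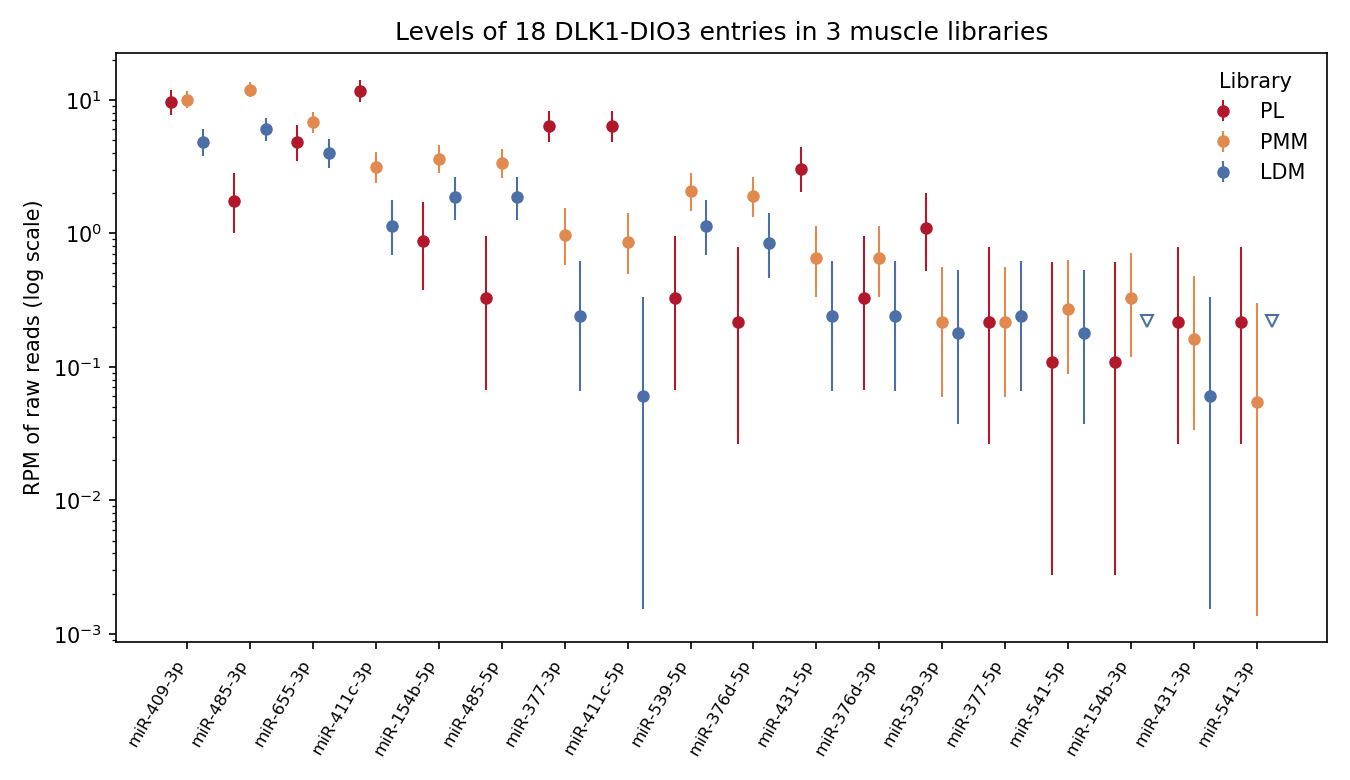
Level of each of the 18 entries in RPM of raw reads (y axis, log scale) in the PL, PMM and LDM libraries, ordered by total reads. Points are values of 1 library, bars are 95% exact Poisson intervals and open triangles mark the upper limit for the 2 entries at 0 in LDM; miR-411c-5p, miR-411c-3p, miR-377-3p and miR-431-5p have PL above both other points.

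The members lower in PL were the strands of miR-485. In human breast cancer cells both strands were described as lowering PGC-1alpha, a coactivator that drives the genes of mitochondria. For miR-485-3p there were 16, 220 and 100 reads in PL, PMM and LDM, or 1.74, 11.9 and 6.02 RPM, and the intervals of the 3 levels did not overlap. PMM was 6.83-fold above PL (4.11 to 12.2, largest Bonferroni-adjusted exact or approximate p = 7.5e-16), LDM was 3.45-fold above PL (2.02 to 6.27, adjusted p = 0.00011), and PMM was 1.98-fold above LDM (1.56 to 2.54, adjusted p = 8.2e-07). For miR-485-5p there were 3, 62 and 31 reads, or 0.327, 3.36 and 1.87 RPM. PMM was 10.3-fold above PL (3.35 to 51.1, largest Bonferroni-adjusted exact or approximate p = 0.00011). The 5.70-fold difference of LDM from PL was not called (1.78 to 29.1, largest exact or approximate adjusted p = 0.12), nor was the 1.80-fold difference between PMM and LDM (1.15 to 2.87, adjusted p = 0.74). With miR-26b-5p left out of the summed reads as the total, the calls of miR-485-5p between PL and PMM (log2 ratio -2.93) and of miR-485-3p between PL and LDM (-1.59) ended, as did that of miR-485-3p between PMM and LDM (0.74) there and under the other 3 totals.

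A group of 3 further 5p strands had ratios in the same direction in PL without being called. miR-154b-5p had 8, 67 and 31 reads in PL, PMM and LDM, and PMM was 4.16-fold above PL (1.99 to 10.0), just outside the threshold (largest Bonferroni-adjusted exact or approximate p = 0.0037). miR-539-5p had 3, 38 and 19 reads, a ratio of PMM over PL of 6.29 (2.00 to 31.9). In mouse heart muscle cells miR-539 was described as lowering prohibitin 2, a protein of the inner mitochondrial membrane. miR-376d-5p had 2, 35 and 14 reads, a ratio of 8.69 (2.23 to 74.6). With the summed reads of the table as the total, all 3 were called lower in PL than in PMM. The log2 ratios of PL over PMM were then -3.60 for miR-154b-5p, -4.20 for miR-539-5p and -4.66 for miR-376d-5p. With that total miR-154b-5p and miR-539-5p were also called lower in PL than in LDM. Under TMM miR-154b-5p was called lower in PL than in PMM (-2.25). Hairpins of the miR-376 family are known for A-to-I editing within the seed, and an edited read would differ from the listed sequence.

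The remaining abundant members differed less. miR-409-3p, which led in no library but had the most reads over all 3 together, had 88, 185 and 80 reads in PL, PMM and LDM, or 9.60, 10.0 and 4.81 RPM. PMM was 2.08-fold above LDM (1.59 to 2.74, largest Bonferroni-adjusted exact or approximate p = 2.3e-06). PL stood at 0.958 times PMM (0.734 to 1.24) and at 1.99 times LDM (1.46 to 2.73), the second of which narrowly missed the threshold (largest exact or approximate adjusted p = 0.0012). Both ratios moved with the total: with the summed reads of the table the log2 ratio to LDM turned to -0.78 and that to PMM was -1.61 and called, and with miR-26b-5p left out of them the ratio to LDM was 1.19 and called and that to PMM turned to 0.37. miR-655-3p, whose human counterpart lowers ZEB1 in cancer cells, had 44, 125 and 66 reads, or 4.80, 6.77 and 3.97 RPM, and was called in no comparison, its ratio of PL to PMM being 0.709 (0.491 to 1.01). Its ratio of PL to LDM, 1.21 (0.806 to 1.80), turned below 1 under 3 of the 4 other totals and was called lower with the summed reads. Of the other 7 entries, each with 3 to 19 reads in all, none was called. They included both strands of miR-541, which lowers synapsin I and neurite growth in rat PC12 cells, with 1, 5 and 3 reads for the 5p and 2, 1 and 0 for the 3p strand.

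**Figure D3:**
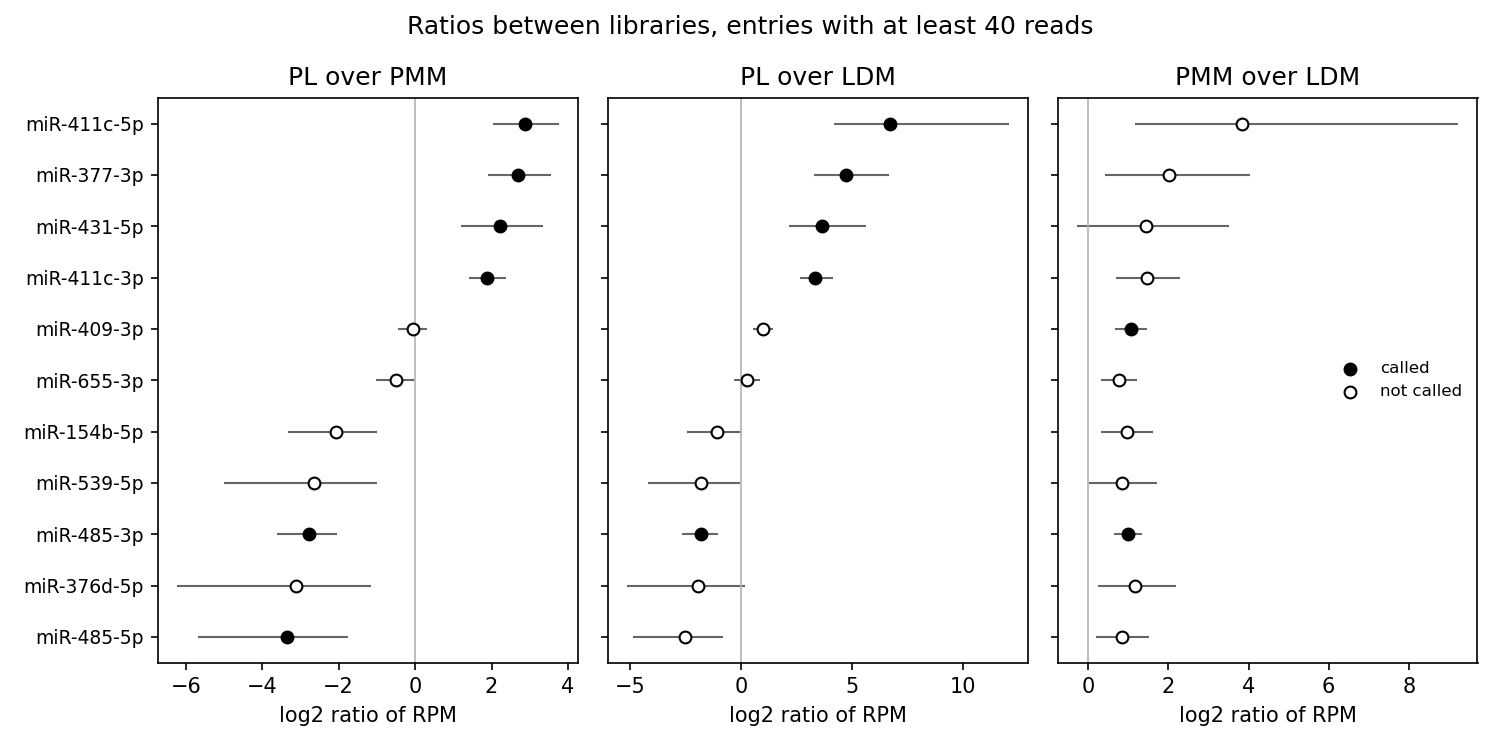
Ratios between libraries (x axis, log2 ratio of RPM) for the 11 entries with at least 40 reads, ordered by PL over PMM. Points are the ratios of 2 libraries, filled where called, and lines are 95% intervals from counting error; between PL and PMM the entries run from -3.36 to 2.87, whereas between PMM and LDM all 11 are above 0.

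Of the 18 entries 17 (94.4%) had a higher RPM in PMM than in LDM, with 64.8% of all tested miRNAs, the exception being miR-377-5p with 4 reads in each. Under TMM scaling 16 were higher (88.9%), with 53.7% of all tested, and 16 were also higher with median-of-ratios factors. Over the 16 entries with reads in both, the median log2 ratio was 1.02, with 0.53 over all tested miRNAs with reads in both. Only miR-485-3p and miR-409-3p were called, and neither was called under any of the 4 other library totals, where their log2 ratios lay between 0.55 and 0.82. For PL over PMM the median of the members was -0.28 with 0.01 over all tested miRNAs, and for PL over LDM it was 0.36 with 0.27 over all tested.

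Whether members shared a fold was tested pair by pair, on the reads of 2 entries in 2 libraries, which needs no library total. Entries with at least 20 reads in the compared libraries gave 136 pairs, of which 69 differed by Fisher's exact test with Benjamini-Hochberg adjustment at 0.05. Between PL and PMM 38 of 55 pairs differed, near the 71.9% of the pairs of all tested miRNAs with the same minimum of reads. Between PL and LDM 31 of 45 did (73.3% of all such pairs). Between PMM and LDM 0 of 36 did (46.3% of all such pairs), and the smallest unadjusted p by Fisher's exact test was 0.15 there, so that 0 pairs fell under 0.05 before adjustment. This 0 depends on the minimum of reads. With at least 10 reads miR-411c-5p (16 and 1 reads in PMM and LDM) entered, and 2 of 66 pairs passed, miR-411c-5p with miR-655-3p (adjusted p = 0.032 by Fisher's exact test) and with miR-485-5p (adjusted p = 0.047 by Fisher's exact test). The pair miR-411c-3p and miR-485-3p had 107 and 16 reads in PL against 58 and 220 in PMM, a 25.4-fold difference in their ratio (adjusted p = 1.4e-34 by Fisher's exact test). Against LDM it was 35.2-fold (adjusted p = 4.5e-29 by Fisher's exact test), and between PMM and LDM 1.39-fold (adjusted p = 0.43 by Fisher's exact test). The pair miR-409-3p and miR-655-3p did not pass in any comparison. A pair that does not pass is not shown to have the same fold, and entries with few reads could not show a moderate difference. The pairs of all tested miRNAs were adjusted as a set of their own. They included miRNAs with far more reads than any member, such as miR-26b-5p, so their shares are not matched to the members for reads.

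By listed coordinate, the members called higher and lower in PL than PMM on raw read totals alternated, over miR-377, miR-485 and miR-411c only. With the summed reads of the table as the total, neither miR-377-3p nor either strand of miR-411c was called against PMM. In this order miR-377, with its 3p strand higher in PL, was followed by miR-154b, not called, then by miR-485, with both strands lower, then by miR-411c, with both strands higher, and by miR-655, not called. The starts of miR-377, miR-485 and miR-411c lay 3.32, 9.87 and 14.2 kb along the listed positions, with miR-496 and miR-487a, which are no members, between them.

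**Figure D4:**
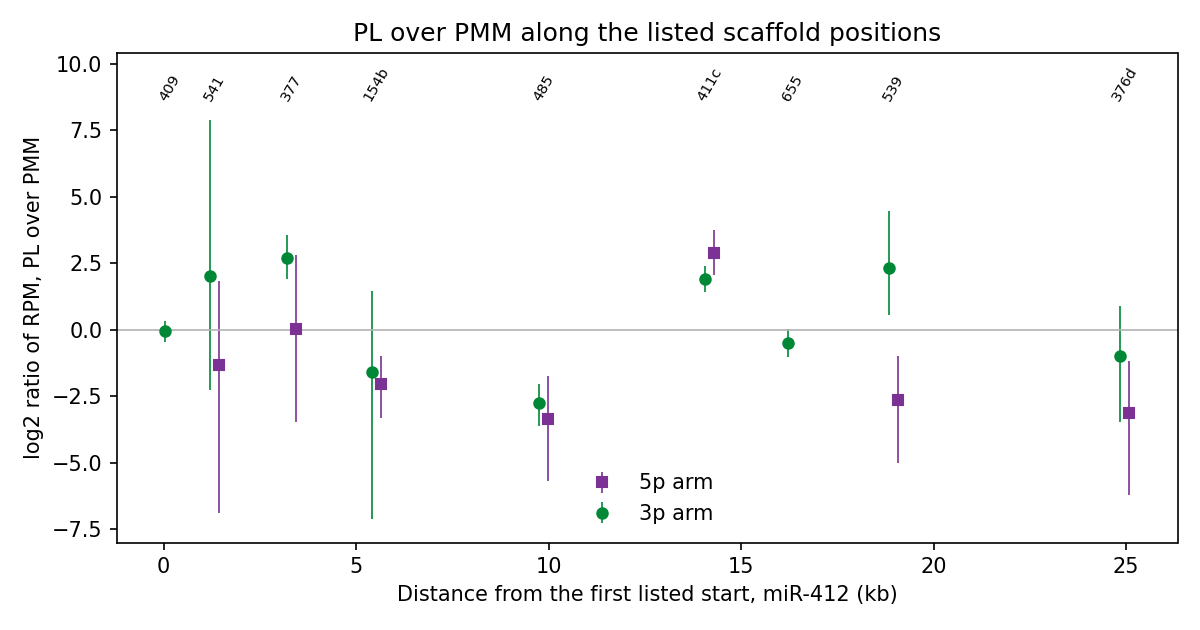
Log2 ratio of RPM of PL over PMM (y axis) for the entries of the 9 precursors listed on scaffold positions, by distance in kb from the start of miR-412 (x axis). Squares are 5p and circles 3p strands, shifted slightly apart, and lines are 95% intervals from counting error; entries well above 0 (miR-377-3p, both strands of miR-411c) lie among entries well below it (miR-154b-5p and both strands of miR-485).

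The strands of a hairpin could be compared without a library total, since both were counted in the same libraries. The share of 5p reads was tested by Fisher's exact test where each strand had at least 10 reads in the 2 libraries, with Benjamini-Hochberg adjustment over the 45 such tests of the table. Of these 53.3% passed at 0.05, and of the 10 tests in 4 members of the cluster 3 did. The 45 include these 10, and the difference between the shares was not tested.

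The clearest case was miR-539. Its 5p strand had 3 of 13 reads in PL (23.1%, 95% Clopper-Pearson interval 5.04% to 53.8%), 38 of 42 in PMM (90.5%, 77.4% to 97.3%) and, in LDM, 19 of 22 (86.4%, 65.1% to 97.1%). The share in PL differed from that in PMM (adjusted p = 3.1e-05 by Fisher's exact test) and from that in LDM (adjusted p = 0.00094 by Fisher's exact test), and the intervals of PL and the other libraries did not overlap. The 3p strand of miR-539, which carries the seed shared with miR-485-3p, had 10, 4 and 3 reads, so the result rests on few reads. It is also the strand whose level was higher in PL, with a ratio to PMM of 5.03 (1.45 to 21.98) that was not called.

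For miR-411c the 5p share in PL was 35.2% (27.9% to 43.0%). It was 21.6% in PMM (12.9% to 32.7%) and, in LDM, 5% (0.127% to 24.9%). PL differed from LDM (adjusted p = 0.0099 by Fisher's exact test), where the 5p strand had 1 of 20 reads, but not after Bonferroni adjustment over the 45 tests (p = 0.21). The difference from PMM did not pass (adjusted p = 0.081 by Fisher's exact test). In miR-485, whose strands were both called lower in PL than in PMM, the 5p share was 15.8% of 19 reads, 21.99% of 282 and 23.7% of 131, and no test passed (adjusted p from 0.69 to 0.87 by Fisher's exact test). In miR-376d the share was 40% of 5 reads, 74.5% of 47 and 77.8% of 18, and the 2 tests made did not pass. The 5p strand held most reads of miR-431 and miR-154b and the 3p strand those of miR-377 in PL and PMM. These 3 hairpins and miR-541 had too few reads on 1 strand for a test.

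**Figure D5:**
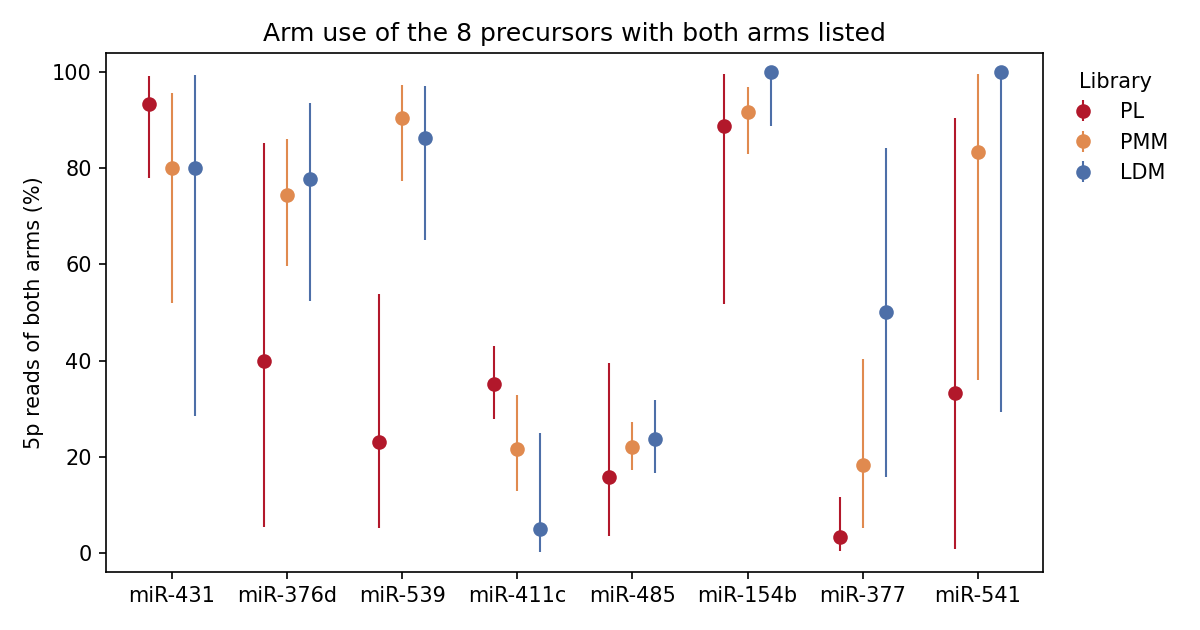
Share of 5p reads among the reads of both strands (y axis, percent) for the 8 precursors with both strands listed, in the PL, PMM and LDM libraries. Points are single libraries and bars are 95% Clopper-Pearson intervals; for miR-539 the PL point is at 23.1% and the PMM and LDM points are at 90.5% and 86.4%.

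Summed over the 3 entries with the seed TCATACA, PL had 27 reads, PMM 230 and LDM 103, or 2.94, 12.5 and 6.20 RPM. miR-485-3p supplied 220 of the PMM reads and 100 of the LDM reads, whereas in PL it supplied 16 and miR-539-3p 10. The summed seed family thus had the same order of libraries as miR-485-3p alone.

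The 5 other precursors of the locus in the table gave 7 entries, of which 5 had at least 3 reads and none was called in any comparison. Their summed reads were 49, 43 and 45 in PL, PMM and LDM, or 5.34, 2.33 and 2.71 RPM. PL stood 2.29-fold above PMM (1.49 to 3.54), and PMM stood at 0.860 times LDM (0.553 to 1.34). The more abundant were miR-376b-3p with 26, 21 and 25 reads, miR-412-5p with 11, 3 and 3, and miR-544-5p with 10, 1 and 1. miR-496-3p had 0 reads in PL, which allows up to 0.402 RPM, and 14 and 13 in PMM and LDM, or 0.758 and 0.782 RPM.

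Marker miRNAs of neural and epithelial cells moved between the same libraries. Each list was covered only in part by the table. Neural miRNAs (3 entries of miR-219 and miR-138) had 0, 189 and 21 reads in PL, PMM and LDM, with miR-138 at 0 in LDM as well. These were 2 of 4 neural names looked for, and miR-9 and miR-124 had no entry. Epithelial miRNAs (3 entries, from 3 of 6 names) had 9, 78 and 32 reads, with miR-200c at 0 in PL. The immune miRNA miR-223 (2 entries, from 1 of 4 names) had 15, 42 and 37 reads, and its levels differed less, at 1.636, 2.275 and 2.226 RPM. As for the miR-485 strands, the levels of the neural and epithelial lists were highest in PMM and lowest in PL, at 0, 10.2 and 1.26 RPM for the neural entries and 0.982, 4.22 and 1.93 RPM for the epithelial entries. Their part in the differences of the cluster was not tested. The erythroid and endothelial miRNAs looked for (2 names and 1 name) had no entry in the table, so their levels were not analysed here.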

How the data were processed

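Junk reads, reads lacking the 3′ adapter and those outside 16 to 29 bases had been discarded by the authors, who searched the rest with NCBI BLAST against miRBase 19.0 hairpins (pig plus 24 further mammals) and against Sscrofa10.2. The BLAST version is not given in the sources used here. The deposited table holds whole read counts per miRNA and library, under a heading that speaks of the most abundant sequences; 118 of its 456 cells hold a mark for no read and were read as 0. Counts were divided by the raw reads of each library to give RPM. Repeated sequences were counted once, and sequences with under 3 reads in all were not tested. Members and lists were chosen with earlier results of these data known; entries with at least 50 reads, or called, were named with all values. Tests were run in Python 3.11.15 with scipy 1.17.1 and tested on simulated data. Alternatives were other library totals (summed reads, the same without the most abundant miRNA, median-of-ratios, and TMM computed in Python with 30% and 5% trims), read minimums, only Fisher's exact test, a Benjamini-Hochberg adjustment, every listed row and a 2-fold limit.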

Additional observations from a re-analysis of the deposited data

How the results depend on the processing

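No paired analysis was possible because there is 1 library for every muscle, and for the same reason no replicate could be left out. The count of members called between PL and LDM was 8 with the summed reads of the table as the total. The count between PMM and LDM was 0 under each of the 4 other totals and 1 with a 2-fold limit. Members enriched in PL were 0 with the summed reads and 3 with TMM, and those enriched in PMM 0 under each other total and with the 2-fold limit. The log2 ratio of summed reads of PL over PMM was -1.53 with the summed reads, 0.45 with the most abundant miRNA left out of them and -0.18 with TMM. For PL over LDM it reversed to -0.74 with the summed reads and was 0.71 with median-of-ratios factors and 0.42 with TMM. For PMM over LDM it was 0.80, 0.79, 0.70 and 0.59 under the 4 totals. Of 132 ratios of 11 named entries under the 4 totals, 101 kept direction and call, 16 lost the call, 10 gained one and 5 turned. These were miR-655-3p in PL over LDM (-1.50 with the summed reads, then called, -0.063 with median-of-ratios and -0.35 with TMM) and miR-409-3p in PL over LDM (-0.78 with the summed reads) and in PL over PMM (0.37 without the most abundant miRNA). With at least 30 reads per strand 1 of 5 strand tests passed, and miR-539, with too few 3p reads, was not among the 5. With at least 50 reads 33 of 64 pairs passed. Adjusted over the pairs of all tested miRNAs, an alternative chosen after seeing the data, 70 of 136 pairs did. The read minimum, only Fisher's exact test, a Benjamini-Hochberg adjustment and the use of every row kept each count of calls within 1.5 times. Depth limits the members: an entry at 3 reads stands at 0.327 RPM in PL, and ratios that rest on 1 to 3 reads have wide intervals.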
